A study of Mus musculus with 32 samples.

Results

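T cells enter a tumor by following chemokines, and 7 genes of that system are described here in orthotopic mouse liver tumors: the ligands Cxcl9, Cxcl10 and Cxcl11 with their shared receptor Cxcr3, the ligand Cxcl16 with its receptor Cxcr6, and the ligand Ccl5. They were taken by name, as 5 chemokine ligands and 2 receptors out of 54446 genes counted by RNA sequencing. BNL-MEA, a liver cancer line of the mouse, had been implanted into BALB/c livers, and 32 libraries fell into 10 groups in 3 experiments, which the labels give as batches. In the first (the dose experiment) vehicle (n = 4) was compared with regorafenib, an oral multikinase inhibitor, given at a low dose of 5 mg/kg/day (n = 3) or a high dose of 20 mg/kg/day (n = 3). In the next (the DC-101 experiment) DC-101, a VEGFR2 antibody injected at 800 µg on days 1, 3 and 5 (n = 3), was set beside regorafenib at the low dose (n = 3) and vehicle (n = 4). In the last (the anti-PD1 experiment) the groups were vehicle, low dose regorafenib, anti-PD1 antibody, and low dose regorafenib with anti-PD1 (combination), with n = 3 each. All mice carried the same tumor line, and the labels give neither age nor sex.

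Cxcl9, Cxcl10 and Cxcl11 are known as interferon-induced chemokines, made by macrophages, dendritic cells, endothelium and tumor cells, that draw CXCR3-bearing activated T cells and NK cells. Ccl5 is made by activated T cells, NK cells and macrophages and acts through several receptors. Cxcl16 is a membrane-bound chemokine of macrophages and dendritic cells that is shed by the proteases Adam10 and Adam17, and Cxcr6 marks T cells and NK cells that reside in tissue, the liver among them. Dpp4 trims the N-terminus of Cxcl9, Cxcl10 and Cxcl11.

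The 3 Cxcr3 ligands lie side by side on the minus strand of chromosome 5 (GRCm38): Cxcl9 (ENSMUSG00000029417.9) at 92321347 to 92328079, Cxcl10 (ENSMUSG00000034855.13) at 92346638 to 92348889 and Cxcl11 (ENSMUSG00000060183.6) at 92359544 to 92365485. Cxcl11 is annotated as a polymorphic pseudogene in Gencode and a transcribed pseudogene in RefSeq, both built on the C57BL/6 reference. Its level is therefore a transcript level, and the protein in these BALB/c tumors was not measured. Cxcr3 (ENSMUSG00000050232.6) is on chromosome X at 101731535 to 101734269. Ccl5 (ENSMUSG00000035042.2) and Cxcl16 (ENSMUSG00000018920.11) are on chromosome 11, at 83525778 to 83530518 and 70453983 to 70459984. Cxcr6 (ENSMUSG00000048521.8) is on chromosome 9 at 123806475 to 123811760. Exons of Cxcl10, Cxcl11 and Cxcl16 share 133 of 2252, 1582 of 3794 and 552 of 3021 bases with genes of the opposite strand (Art3, Gm2673 and Zmynd15), and since the strand column counted is not stated, reads from those bases cannot be assigned with certainty.

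Promoter sequences of 4 of the 7 genes were matched in RefSeq (GRCm38.p6), and Cxcl11, Ccl5 and Cxcl16 are named only. The 250 bases before the start of Cxcl10 (chr5:92348890-92349139, minus strand) and of its neighbor Cxcl9 (chr5:92328080-92328329, minus strand) are printed because both genes respond to interferon and their levels are followed below. Capitals mark matches, on either strand, to the interferon-stimulated response element (ISRE, read here as GAAA, any 2 bases, GAAA) and to the NF-kB consensus.
Cxcl10: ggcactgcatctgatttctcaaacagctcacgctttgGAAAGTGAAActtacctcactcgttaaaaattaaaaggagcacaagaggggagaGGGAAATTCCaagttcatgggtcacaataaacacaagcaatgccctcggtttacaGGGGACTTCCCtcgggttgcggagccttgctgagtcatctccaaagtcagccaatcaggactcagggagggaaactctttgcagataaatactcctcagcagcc
Cxcl9: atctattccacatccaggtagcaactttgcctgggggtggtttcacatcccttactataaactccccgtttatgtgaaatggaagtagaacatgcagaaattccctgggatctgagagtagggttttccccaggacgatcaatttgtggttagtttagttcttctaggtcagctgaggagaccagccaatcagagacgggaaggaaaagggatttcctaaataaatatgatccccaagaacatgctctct
The Cxcl10 window held 1 ISRE match, 213 to 204 bases before the start, and NF-kB matches at 159 to 150 and, as 2 overlapping matches, at 104 to 94. No match to these motifs was found in the Cxcl9, Cxcr3 or Cxcr6 windows. Of 32851 promoters of this length, 2.98% held an ISRE match and 7.25% an NF-kB match.

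Total counts were between 16.8 M and 27.7 M per library. Hepatocyte marker genes (12 genes) summed to between 22.0 CPM (a library's counts scaled to a common total, with TMM factors from edgeR) and 95447 CPM. All 14 T cell and 11 macrophage marker genes were above 0 in every group. In such bulk tissue, fewer cells of a type and less RNA per cell cannot be told apart. The labels do not say that each library came from a separate mouse, so p-values measure the spread between these samples.

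In the vehicle tumors, Cxcl16 was by far the most abundant of the 7 transcripts. Compared as CPM per kb of exon, the median over 11 vehicle libraries was 47.5 for Cxcl16 (range 18.9 to 72.4), 4.52 for Cxcl9 (0.611 to 96.4), 4.09 for Ccl5 (1.62 to 19.9) and 3.52 for Cxcl10 (1.20 to 23.9). The levels were 1.02 for Cxcr6 (0.318 to 3.75), 0.813 for Cxcl11 (0.0925 to 8.12) and 0.390 for Cxcr3 (0.165 to 1.29). Cxcl16 was above Cxcl9 in 10 of 11 libraries and Cxcl10 above Cxcr6 in 11 of 11. The other neighbors in this order changed places between libraries: Cxcl9 was above Ccl5 in 6 of 11, Ccl5 above Cxcl10 in 8, Cxcr6 above Cxcl11 in 7 and Cxcl11 above Cxcr3 in 8.

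**Figure D1:**
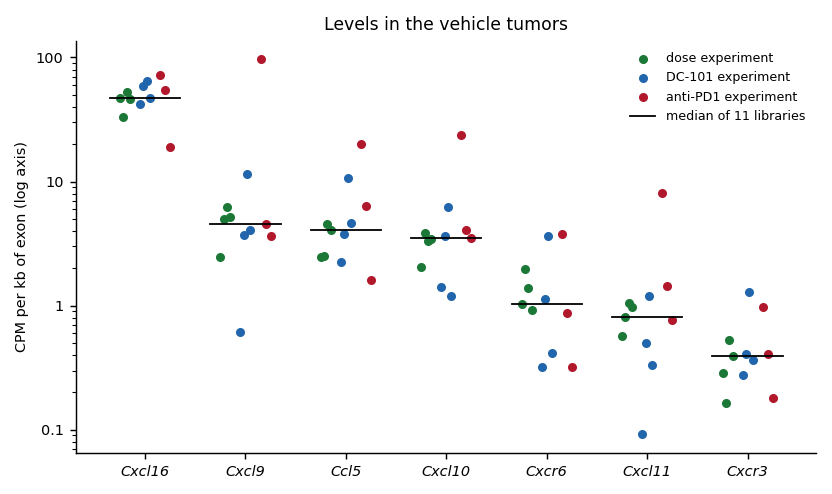
Level of each gene in the 11 vehicle libraries, as CPM per kb of exon on a log axis, with points colored by experiment and a line at the median. Cxcl16 (median 47.5) stands above the others, and the red point at 96.4 for Cxcl9 is vehicle replicate 1 of the anti-PD1 experiment.

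The receptors rested on few reads. Cxcr3 had from 5 to 106 counts over the 32 libraries, and 5 counts have a 95% Poisson interval of 1.62 to 11.7. Cxcr6 had from 14 to 249 counts, Cxcl11 from 8 to 748, Ccl5 from 35 to 683, Cxcl10 from 60 to 1308 and Cxcl9 from 42 to 7061. Cxcl16 had from 794 to 6078 counts. The intervals cover counting error only, since the reads carried no molecular identifiers.

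Cxcl9 was the most variable of the 7, with a highest level 158 times its lowest, while for Cxcl16 this ratio was 6.52. The highest Cxcl9 level was in a vehicle tumor: vehicle replicate 1 of the anti-PD1 experiment had 291 CPM, against 13.6 and 10.95 CPM in the other two vehicle tumors of that experiment. It was also the highest of its group in the other 6 genes. Its T cell markers summed to 100.5 CPM, against 37.7 and 30.8 CPM in the others, and its macrophage markers to 6537 CPM, between their 11204 and 5118 CPM. The members' changes against vehicle in that experiment are given below with and without this library.

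**Figure D2:**
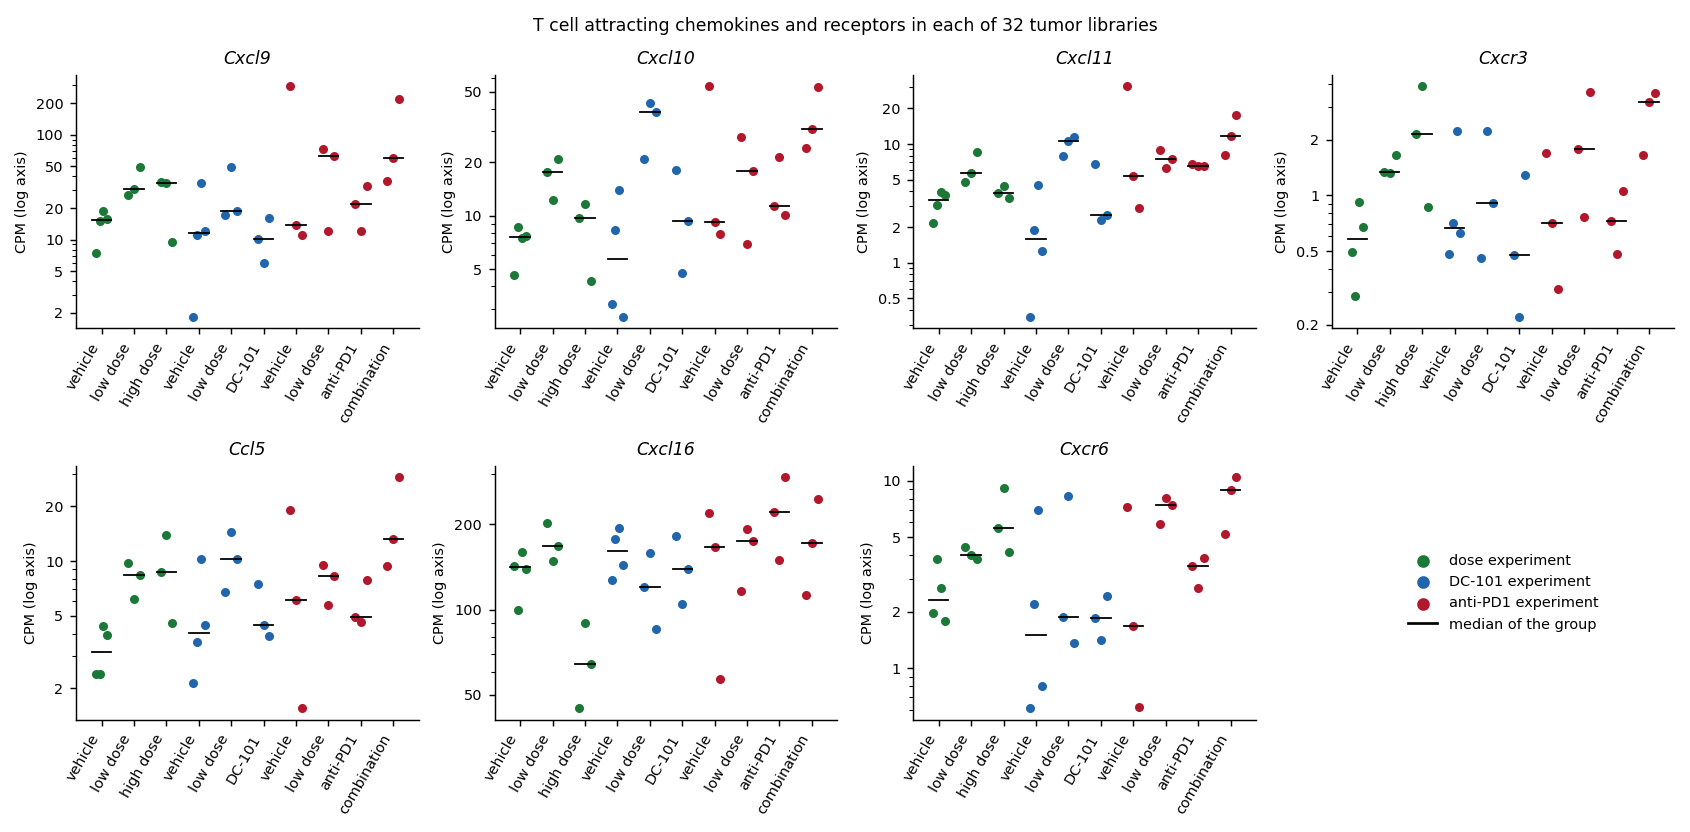
CPM of the 7 genes in each of the 32 libraries, on log axes, with a line at the median of each group and colors for the 3 experiments. Within the dose experiment Cxcl16 is lowest in the high dose tumors (44.9 to 89.5 CPM), and vehicle replicate 1 of the anti-PD1 experiment stands above the other vehicle tumors of its experiment.

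The dose experiment asked how regorafenib at a low and a high dose changed the tumors. At the high dose the receptors Cxcr3 and Cxcr6 and the ligand Ccl5 rose against vehicle, whereas Cxcl16, the ligand of Cxcr6, fell. The interferon-induced ligands Cxcl9, Cxcl10 and Cxcl11 did not pass the test at either dose. At an adjusted p under 0.05 (edgeR quasi-likelihood test, 2-sided, adjusted over all genes), 4 of the 7 genes were called for high dose against vehicle, where 15.6% of 16525 genes were called, 8.8% higher and 6.82% lower. The median log2 change of the 7 was 0.90, and that of all genes 0.02.

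Cxcr3 had 0.494, 0.286, 0.918 and 0.675 CPM in the vehicle tumors, 1.33, 1.33 and 1.65 CPM at the low dose, and 2.15, 3.89 and 0.862 CPM at the high dose. High dose replicate 3 was the lowest of its group and within the vehicle range. The log2 change at the high dose was 1.93 (SE 0.52, adjusted p 0.0449, edgeR). Cxcr6 had 1.98, 3.83, 2.68 and 1.79 CPM in the vehicle tumors, 4.44, 4.01 and 3.81 CPM at the low dose, and 5.60, 9.13 and 4.16 CPM at the high dose. All high dose tumors were above all vehicle tumors, while the lowest low dose value was just under the highest vehicle value. The log2 change of Cxcr6 at the high dose was 1.30 (SE 0.35, adjusted p 0.0449, edgeR).

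Ccl5 had 2.39, 2.399, 4.40 and 3.93 CPM with vehicle, 9.78, 6.21 and 8.36 CPM at the low dose, and 8.66, 13.9 and 4.59 CPM at the high dose. Both dose groups lay above the vehicle group, although high dose replicate 3 did so only narrowly. The log2 change at the high dose was 1.46 (SE 0.39, adjusted p 0.0449, edgeR). Beside these 3 genes, the T cell markers summed to between 19.2 and 36.3 CPM with vehicle, 37.2 and 54.6 CPM at the low dose, and 40.7 and 114 CPM at the high dose. NK cell and cytotoxic markers summed to between 4.61 and 9.65 CPM, 14.4 and 18.01 CPM, and 12.3 and 27.1 CPM in the same groups, so that both dose groups lay above vehicle in both lists. Klra8 of the NK cell list was at 0 in all 3 groups, and Klra4 in the vehicle and high dose groups. Of the 14 T cell markers, 7 rose at the high dose and none fell, beside 8.8% and 6.82% of all genes, among them Cd3e (log2 change 1.86, SE 0.41, adjusted p 0.0347), a subunit of the T cell receptor complex. For Cd8a, of cytotoxic T cells, the log2 change was 1.39 (SE 0.43, adjusted p 0.0532). Of the 8 NK cell and cytotoxic markers tested, 4 rose and none fell, beside the same shares. Other lists were uneven at the high dose: hepatocyte markers summed to between 3633 and 95447 CPM, against 1441 to 8541 CPM with vehicle, and B and plasma cell markers to between 39.6 and 3752 CPM, against 41.4 to 68.6 CPM. The part of these cells in the 3 rises was not tested.

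Cxcl16 moved the other way. It had 142, 99.8, 159 and 139 CPM in the vehicle tumors, 203, 148 and 168 CPM at the low dose, and 44.9, 89.5 and 64.1 CPM at the high dose. Every high dose tumor was below every vehicle and every low dose tumor. The log2 change was -1.03 against vehicle (SE 0.25, adjusted p 0.0397) and -1.39 against the low dose (SE 0.27, adjusted p 0.0286, edgeR). The proteases that shed it also fell at the high dose: Adam10 had a log2 change of -0.83 against vehicle (SE 0.17, adjusted p 0.0320) and Adam17 one of -0.71 (SE 0.15, adjusted p 0.0324). The macrophage markers summed to between 2936 and 4815 CPM with vehicle, 5985 and 7754 CPM at the low dose, and 1004 and 2425 CPM at the high dose, and 9 of the 11 fell at the high dose against vehicle, beside 6.82% of all genes. Hepatocyte markers summed to between 3633 and 95447 CPM at the high dose, against 1441 to 8541 CPM with vehicle. High dose replicate 1, the lowest in Cxcl16, had a TMM factor of 0.678, against 0.973 to 1.10 in the other libraries of this experiment. The part of macrophage or hepatocyte RNA in the falls of Cxcl16, Adam10 and Adam17 was not tested.

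**Figure D3:**
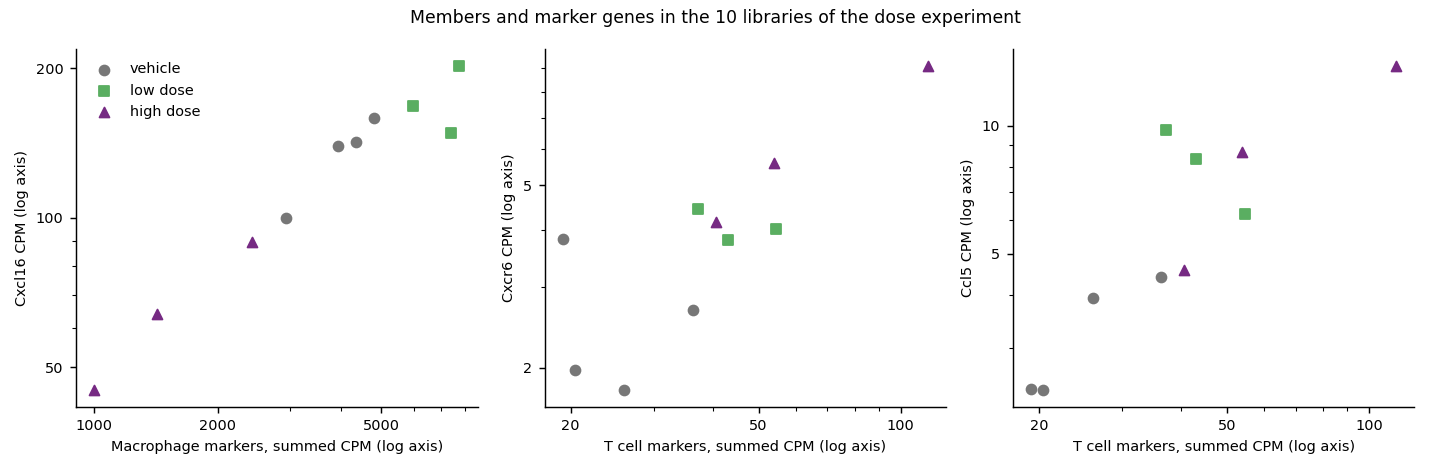
CPM of Cxcl16, Cxcr6 and Ccl5 against the summed CPM of macrophage or T cell markers in the 10 libraries of the dose experiment, all on log axes, with symbols for the groups. The 3 high dose tumors have the lowest macrophage sums (1004 to 2425 CPM) and the lowest Cxcl16 (44.9 to 89.5 CPM), and the high dose tumor with the highest T cell sum (114 CPM) has the highest Cxcr6 (9.13 CPM) and Ccl5 (13.9 CPM).

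Adjusted p-values of the 4 calls lay near the threshold, and the calls depended on the libraries and the scaling. With edgeR, 0 of the 7 genes passed without vehicle replicate 1, 2, 3 or 4 or without high dose replicate 1, 1 passed without high dose replicate 2 (3.19% of all genes), and 5 without high dose replicate 3 (41.1% of all genes), where Cxcl9 joined them with a log2 change of 1.25 (adjusted p 0.0230). Scaling by the total count and testing without the filter on low counts gave 0 as well, limma voom gave 2 (Cxcl16 and Cxcr6, beside 8.06% of all genes) and DESeq2 gave 4 (beside 31.9%). The directions of these 4 changes held in each of those fits. Over all genes, the 2582 calls at the high dose came to between 15 (without vehicle replicate 3) and 7030 (without high dose replicate 3), so the calls of other genes named for this comparison carry the same limit.

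The low dose estimates of the dose experiment were all above 0, but none passed the test. No gene of 16525 was called there by edgeR (0%), with 817 at an unadjusted p under 0.05. DESeq2 called 85 and limma voom 0, and none of these was a member. Of the 7 genes, 5 had an unadjusted p under 0.05, all higher, against 2.41% of all genes, and the same 5 had no overlap between low dose and vehicle tumors, against 6.92% of all genes. The 5 were the Cxcr3 ligands, Cxcr3 itself and Ccl5. As deviations of log2 CPM from the group means over the 32 libraries, they varied together, with r from 0.580 to 0.844 between them. They do not count as 5 separate results.

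Cxcl9 had 7.41, 15.02, 18.8 and 15.7 CPM with vehicle, 26.9, 30.2 and 49.2 CPM at the low dose, and 35.8, 34.4 and 9.56 CPM at the high dose. Cxcl10 had 4.65, 8.62, 7.52 and 7.70 CPM with vehicle, 17.6, 12.2 and 20.9 CPM at the low dose, and 9.73, 11.7 and 4.27 CPM at the high dose. Cxcl11 had 2.18, 3.08, 3.96 and 3.69 CPM with vehicle, 4.79, 5.69 and 8.63 CPM at the low dose, and 3.90, 4.44 and 3.49 CPM at the high dose. The low dose tumors had the highest Cxcl10 and Cxcl11, with no overlap with either other group, whereas for Cxcl9 the low and high dose groups overlapped. Other marker lists also separated low dose from vehicle tumors: dendritic cell markers summed to 25.7 to 31.6 CPM against 37.7 to 46.3 CPM, endothelial markers to 136 to 184 CPM against 218 to 411 CPM, and B and plasma cell markers to 86.4 to 123 CPM against 41.4 to 68.6 CPM. Their part in these values was not tested. The low dose log2 changes against vehicle were 1.31 for Cxcl9 (SE 0.47, adjusted p 0.917), 1.25 for Cxcl10 (SE 0.36, adjusted p 0.795) and 0.98 for Cxcl11 (SE 0.29, adjusted p 0.795). At the high dose they were 0.90 (SE 0.47), 0.26 (SE 0.36) and 0.29 (SE 0.29), with adjusted p of 0.178, 0.607 and 0.487 (edgeR).

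High against low dose shares its libraries with both comparisons above. In it, Cxcl16 alone of the 7 genes passed, where 4.22% of all genes did. The log2 changes were -0.99 for Cxcl10 (SE 0.39, adjusted p 0.142) and -0.69 for Cxcl11 (SE 0.32, adjusted p 0.178), and 3 members (Cxcl10, Cxcl11 and Cxcl16) had no overlap, each lower at the high dose, against 16.2% of all genes. For Cxcr3 and Cxcr6, the 95% intervals of the difference between the doses were -0.55 to 1.92 and -0.22 to 1.47. The Cxcl16 call was lost without low dose replicate 1 (adjusted p 0.146), 2 (0.0931) or 3 (0.0635) and with total count scaling (0.0834).

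Among 33 other chemokines and receptors of T cells, 24 were tested in the dose experiment, with 4 higher and 4 lower at the high dose against vehicle, beside 8.8% and 6.82% of all genes, and none called at the low dose. Their median log2 change at the high dose was 0.23. The largest rises were those of Ccl8 (log2 change 3.42, SE 0.67, adjusted p 0.0300), a monocyte and T cell attractant, Ccl22 (2.55, SE 0.66, adjusted p 0.0428), a ligand of Ccr4, and Ccr7 (2.20, SE 0.59, adjusted p 0.0448), the homing receptor for lymph nodes. The largest falls were in receptors of monocytes and macrophages: Ccr2 (-3.05, SE 0.45, adjusted p 0.0170), Ccr1 (-2.73, SE 0.34, adjusted p 0.0143) and Cx3cr1 (-2.51, SE 0.33, adjusted p 0.0143).

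The interferon gamma axis was tested with 26 of its 28 genes, of which 6 were higher and 2 lower at the high dose, beside 8.8% and 6.82% of all genes, and none was called at the low dose. The 2 lower are a share near that of all genes. Gbp6 (log2 change 2.53, SE 0.50, adjusted p 0.0305), Gbp4 (1.98, SE 0.43, adjusted p 0.0341) and Irgm2 (1.78, SE 0.41, adjusted p 0.0361), all interferon-induced GTPases, had the largest rises. The 2 falls were in the receptor chains Ifngr1 (-0.53, SE 0.12, adjusted p 0.0368) and Ifngr2 (-0.51, SE 0.14, adjusted p 0.0448). Irf1, an interferon-induced transcription factor, had a log2 change of 0.24 (SE 0.12, adjusted p 0.187). Ifng itself did not pass the filter on low counts in this experiment. Dpp4 had a log2 change of 3.66 (SE 1.12, adjusted p 0.0525).

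**Figure D4:**
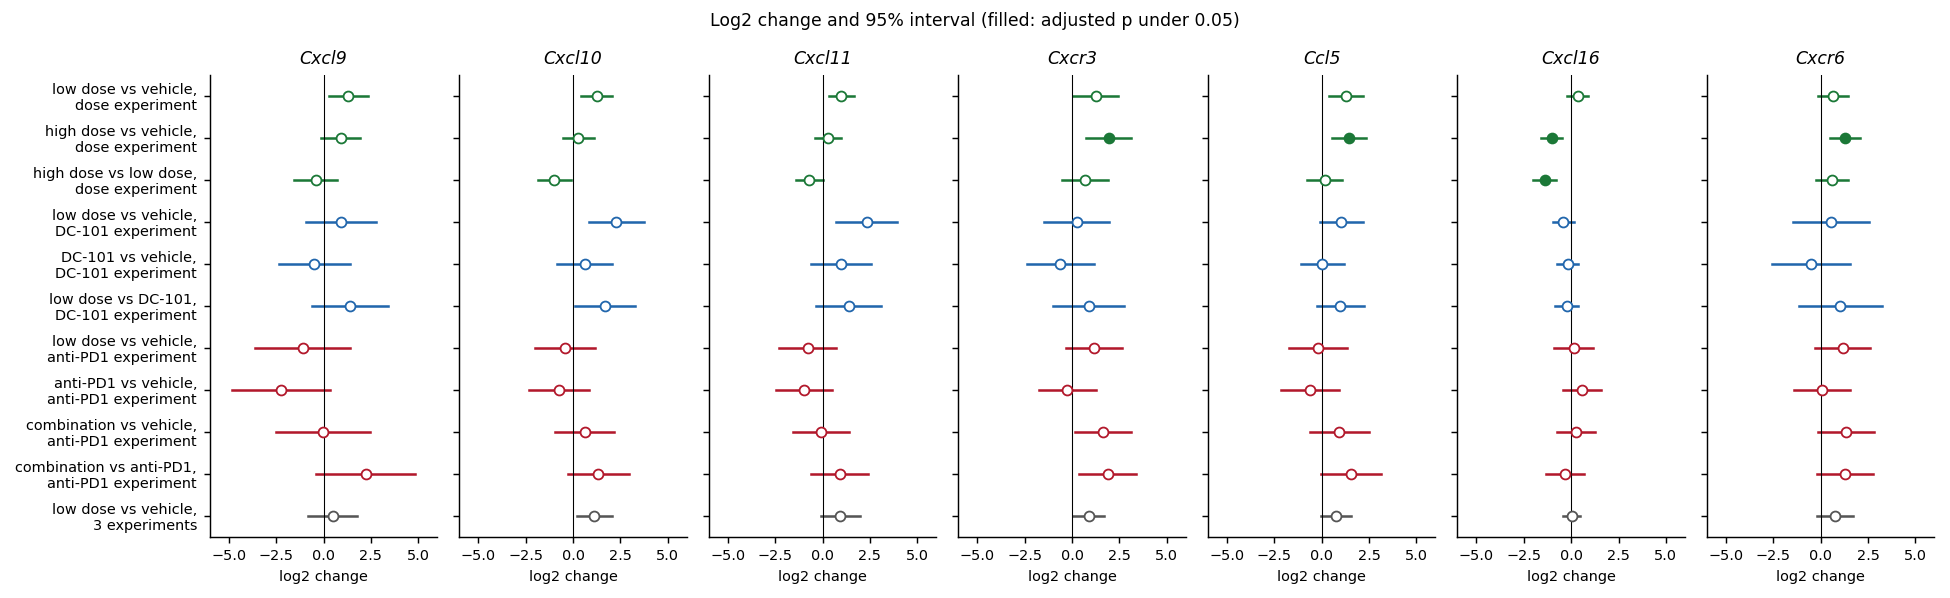
Log2 change (points) and its 95% interval (lines) of each gene in 10 comparisons within experiments and in the fit over the 3 experiments, with filled points at an adjusted p under 0.05 (edgeR). Filled points occur in the high dose comparisons alone: Cxcr3, Ccl5 and Cxcr6 to the right of 0, and Cxcl16 to the left.

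The DC-101 experiment asked whether blocking VEGFR2 alone gave the changes seen with low dose regorafenib. Cxcl10 and Cxcl11 were higher in every low dose tumor than in every vehicle tumor, but did not pass the test over all genes. Cxcl10 had 3.20, 8.27, 14.0 and 2.697 CPM with vehicle, 21.0, 43.2 and 38.4 CPM at the low dose, and 18.1, 4.73 and 9.35 CPM with DC-101. Cxcl11 had 0.351, 1.88, 4.52 and 1.26 CPM with vehicle, 8.002, 10.7 and 11.4 CPM at the low dose, and 6.74, 2.30 and 2.53 CPM with DC-101. Both genes were also higher in every low dose tumor than in every DC-101 tumor, while the DC-101 and vehicle tumors overlapped.

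Against vehicle, the low dose log2 change was 2.28 for Cxcl10 (SE 0.64, adjusted p 0.154) and 2.32 for Cxcl11 (SE 0.71, adjusted p 0.169, edgeR). DESeq2 called these 2 members, with adjusted p of 0.00650 for Cxcl10 and 0.0198 for Cxcl11, where it called 6.8% of all genes. Over the other alternatives, each library left out included, the log2 changes lay between 2.01 and 2.85 for Cxcl10 and between 1.97 and 3.10 for Cxcl11, with adjusted p from 0.121 to 0.390 and from 0.113 to 0.412. By edgeR, 0 of 7 members were called, where 0.0248% of 16138 genes were. The 2 members without overlap stood against 6.93% of all genes.

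The other 5 genes overlapped between low dose and vehicle tumors. Cxcl9 had 1.84 to 34.9 CPM with vehicle, 17.1, 49.4 and 18.8 CPM at the low dose, and 10.1, 5.97 and 16.1 CPM with DC-101. Ccl5 had 2.15 to 10.3 CPM with vehicle, 6.72, 14.5 and 10.3 CPM at the low dose, and 7.52, 4.47 and 3.87 CPM with DC-101. Their low dose log2 changes against vehicle were 0.92 (SE 0.80, adjusted p 0.567) and 1.03 (SE 0.51, adjusted p 0.327). Cxcr3 and Cxcr6 were high in the same 2 tumors, vehicle replicate 3 (2.24 and 6.9999 CPM) and low dose replicate 2 (2.23 and 8.32 CPM). Elsewhere in this experiment Cxcr3 was between 0.221 and 1.29 CPM and Cxcr6 between 0.614 and 2.42 CPM. Without low dose replicate 2 the low dose estimates turned from 0.25 to -0.54 for Cxcr3 and from 0.54 to -0.69 for Cxcr6. Cxcl16 had 127 to 195 CPM with vehicle and 85.7 to 158 CPM at the low dose (log2 change -0.40, SE 0.25, adjusted p 0.417).

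With DC-101 against vehicle, none of 16138 genes was called by edgeR (0%), with 2131 (13.2%) at an unadjusted p under 0.05, and none of the 7 genes was among these. DESeq2 called 373 genes and limma voom 0, with no member. The 95% intervals of the DC-101 changes were -0.82 to 2.04 for Cxcl10 and -0.63 to 2.53 for Cxcl11, so changes as large as a log2 of 2 are within them. Low dose against DC-101 gave 0 of 16138 genes as well (0%; 1364 unadjusted, DESeq2 203, limma voom 0), with log2 changes of 1.67 for Cxcl10 (SE 0.69, adjusted p 0.563), 1.37 for Cxcl11 (SE 0.76, adjusted p 0.682) and 1.41 for Cxcl9 (SE 0.88, adjusted p 0.729). These 3 ligands did not overlap between the groups, against 5.48% of all genes. With 1 of the libraries compared left out, the log2 change ran from 1.29 to 2.25 for Cxcl10. For Cxcl11 it ran from 1.09 to 2.03 and for Cxcl9 from 0.74 to 1.81. The comparison shares its low dose libraries with the one against vehicle. T cell markers summed to 24.6 to 108 CPM at the low dose, 27.9 to 79.7 CPM with vehicle and 14.99 to 43.1 CPM with DC-101. Endothelial markers summed to 130 to 168 CPM at the low dose and 106 to 205 CPM with DC-101, both below the 255 to 591 CPM with vehicle. Hepatocyte markers summed to 1696 to 20335 CPM, 71.7 to 28786 CPM and 22.0 to 5448 CPM at the low dose, with DC-101 and with vehicle, and neutrophil markers to 53.1 to 379 CPM, 42.4 to 232 CPM and 33.4 to 193 CPM. Their part in these values was not tested.

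The wider lists gave no call in this experiment. None of 20 tested chemokines and receptors, 26 genes of the interferon gamma axis or 14 T cell markers passed in any of its comparisons. For the low dose against vehicle, the log2 change was 0.13 for Irf1 (SE 0.23, adjusted p 0.804). Adam10, Adam17 and Dpp4 had log2 changes of 0.12 (SE 0.11), 0.50 (SE 0.22) and 1.63 (SE 1.04), none past the threshold.

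The anti-PD1 experiment asked what regorafenib added to a checkpoint antibody. None of the 7 genes passed in any of its comparisons. The combination tumors were above the anti-PD1 tumors in 6 of the 7 genes, Cxcl16 being the exception. Cxcl9 had 21.8, 12.1 and 32.8 CPM with anti-PD1 and 36.1, 60.01 and 217 CPM with the combination. Cxcl10 had 11.4, 21.5 and 10.1 CPM against 24.0, 30.9 and 53.2 CPM, and Cxcl11 had 6.75, 6.59 and 6.51 CPM against 8.05, 11.7 and 17.6 CPM. The anti-PD1 tumors were close together in Cxcl11, and the combination tumors were spread more widely.

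The receptors and Ccl5 showed the same order. Cxcr3 had 0.728, 0.485 and 1.06 CPM with anti-PD1 and 1.65, 3.18 and 3.54 CPM with the combination. Cxcr6 had 3.49, 2.67 and 3.86 CPM against 5.22, 8.94 and 10.4 CPM, and Ccl5 had 4.90, 4.65 and 7.91 CPM against 9.35, 13.3 and 28.8 CPM. The 6 members without overlap stood against 16% of all 16615 genes that were higher in this way. They varied together within groups (r from 0.580 to 0.844 between them) and do not count as 6 separate results. The log2 change of the combination against anti-PD1 was 1.87 for Cxcr3 (SE 0.69, adjusted p 0.488), 2.23 for Cxcl9 (SE 1.19, adjusted p 0.642) and 1.56 for Ccl5 (SE 0.72, adjusted p 0.580, edgeR). For Cxcr6 it was 1.29 (SE 0.67, adjusted p 0.630), for Cxcl10 1.33 (SE 0.73, adjusted p 0.658) and for Cxcl11 0.91 (SE 0.68, adjusted p 0.756). Without combination replicate 3, the highest of its group in each of these 6 genes, the estimates were 1.11 for Cxcl9, 0.96 for Ccl5 and 0.58 for Cxcl11, and 0 members passed when any 1 of the libraries compared was left out. No gene was called by edgeR (0%), with 1443 at an unadjusted p under 0.05, of the members Cxcr3 alone, which was higher as were 6.52% of all genes at that level. DESeq2 called 210 and limma voom 0, with no member.

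Other markers moved with the combination. T cell markers summed to 65.2 to 141 CPM with the combination and 27.7 to 46.4 CPM with anti-PD1, NK cell and cytotoxic markers to 23.9 to 42.7 CPM and 3.44 to 10.2 CPM, B and plasma cell markers to 128 to 463 CPM and 38.1 to 55.3 CPM, and hepatocyte markers to 4392 to 18546 CPM and 961 to 3087 CPM. Klra8 of the NK cell list was at 0 in both groups, and Klra4 in the anti-PD1 tumors. The part of these cells in the differences was not tested. Cd3e had a log2 change of 2.10 (SE 0.79, adjusted p 0.495), Cd8a one of 1.75 (SE 0.83, adjusted p 0.591) and Ifng one of 3.14 (SE 1.28, adjusted p 0.529).

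Against vehicle, the estimates rested on vehicle replicate 1. In that tumor and the other two, Cxcl10 had 53.9, 9.18 and 7.93 CPM, Cxcl11 30.8, 5.43 and 2.89 CPM and Ccl5 19.1, 6.09 and 1.56 CPM. The low dose tumors had 72.8, 12.1 and 62.1 CPM of Cxcl9, 27.8, 6.97 and 17.9 CPM of Cxcl10, 8.92, 6.26 and 7.45 CPM of Cxcl11, and 9.56, 5.72 and 8.30 CPM of Ccl5. All these values of Cxcl9, Cxcl10, Cxcl11 and Ccl5 at the low dose were below that of vehicle replicate 1. With it, the log2 changes of Cxcl9 were -1.10 at the low dose, -2.24 with anti-PD1 and -0.01 with the combination. Without it they were 1.95, 0.84 and 3.06 (adjusted p 0.416, 0.731 and 0.295). Cxcl10 went from -0.43, -0.73 and 0.60 to 0.99, 0.72 and 2.05, and Cxcl11 from -0.79, -0.98 and -0.07 to 0.82, 0.65 and 1.55. For Ccl5, the values went from -0.18, -0.62 and 0.94 to 1.002, 0.58 and 2.14. So 4 ligands turned from below to above 0 for the low dose and for anti-PD1 when 1 vehicle tumor was left out, with no call either way. Since this tumor was singled out for its high values of the members, leaving it out had to raise their changes. These shifts are a description, not a test.

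Cxcr3 and Cxcr6 kept their side of 0 for the low dose and the combination. The low dose log2 change was 1.17 for Cxcr3 (SE 0.67, adjusted p 0.545), from 1.69, 0.710 and 0.312 CPM with vehicle to 1.77, 0.763 and 3.59 CPM. For Cxcr6 it was 1.16 (SE 0.67, adjusted p 0.545), from 7.25, 1.67 and 0.623 CPM to 5.91, 8.12 and 7.41 CPM. For Cxcr3 it fell to 0.49 without low dose replicate 3, and for Cxcr6 to 0.67 without vehicle replicate 3. Without vehicle replicate 1 the low dose changes of Cxcr3 and Cxcr6 were 1.95 and 2.61. The combination against vehicle gave 1.62 for Cxcr3 (SE 0.68, adjusted p 0.572) and 1.36 for Cxcr6 (SE 0.67, adjusted p 0.632), and 2.42 and 2.81 without that library (adjusted p 0.295 and 0.223). For anti-PD1 against vehicle the estimates went from -0.26 to 0.55 for Cxcr3 and from 0.065 to 1.52 for Cxcr6 when it was left out. Cxcl16 had 219, 166 and 57.0 CPM with vehicle, 117, 193 and 175 CPM at the low dose, 221, 150 and 293 CPM with anti-PD1 and 112.4, 172 and 245 CPM with the combination, and all 4 groups overlapped. Its log2 changes against vehicle were 0.13 at the low dose, 0.59 with anti-PD1 and 0.26 with the combination, and without vehicle replicate 1 they were 0.50, 0.96 and 0.63.

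Some marker lists separated these groups from vehicle. B and plasma cell markers summed to 121 to 346 CPM at the low dose and 128 to 463 CPM with the combination, against 19.7 to 62.8 CPM with vehicle. Endothelial markers summed to 80.0 to 157 CPM, 121 to 172 CPM and, with anti-PD1 alone, 155 to 177 CPM, against 206 to 324 CPM. Hepatocyte markers summed to 1003 to 4568 CPM at the low dose and 961 to 3087 CPM with anti-PD1, against 10014 to 13205 CPM. Their part in the members' changes was not tested.

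These comparisons share their vehicle libraries. By edgeR, none of 16615 genes was called (0%) for the low dose (1964 unadjusted, DESeq2 425, limma voom 0), for anti-PD1 (0%, 2269 unadjusted, DESeq2 614, limma voom 0) or for the combination (0%, 1362 unadjusted, DESeq2 150, limma voom 0). No member was called by these tools. Whether the low dose acted differently with and without anti-PD1 was tested as an interaction, which called no gene (0%, 1794 unadjusted, DESeq2 534, limma voom 0). The interaction was 3.33 for Cxcl9 (SE 1.65, adjusted p 0.504), and 0.28 for Cxcl9 without vehicle replicate 1. It was 0.71 for Cxcr3 (SE 0.95) and 0.13 for Cxcr6 (SE 0.94), with 95% intervals of -1.37 to 2.78 and -1.92 to 2.19, and -0.0805 and -1.32 without that library.

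Low dose regorafenib was given in all 3 experiments, and a fit with the experiment as a term compared 9 low dose with 11 vehicle libraries. No member passed, where 1.52% of 17238 genes did. All 7 estimates were above 0, with a median log2 change of 0.78 against 0.02 over all genes, and Cxcl10 and Cxcr3 had an unadjusted p under 0.05, where 8.02% of all genes were higher at that level. Cxcl10 had a log2 change of 1.13 (SE 0.45, adjusted p 0.225) and Cxcr3 one of 0.88 (SE 0.39, adjusted p 0.285, edgeR). For Cxcl11 it was 0.94 (SE 0.50, adjusted p 0.381), for Cxcr6 0.78 (SE 0.45, adjusted p 0.440), for Ccl5 0.76 (SE 0.37, adjusted p 0.324), for Cxcl9 0.48 (SE 0.61, adjusted p 0.768) and for Cxcl16 0.02 (SE 0.21, adjusted p 0.972). DESeq2 and limma voom, which called 1061 and 309 genes, called no member either.

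This result turned on vehicle replicate 1 of the anti-PD1 tumors too. When that library was left out, Cxcl10 (log2 change 1.57, adjusted p 0.0148) and Cxcl11 (1.44, adjusted p 0.0394) passed, beside 1.66% of all genes, and Ccl5 came to 1.13 (adjusted p 0.0553). Because that library was singled out for its high values of the members, this rise was fixed beforehand, and these adjusted p-values are no test. Without the whole anti-PD1 experiment, Cxcl10 alone passed (1.77, adjusted p 0.0250), beside 2.37% of all genes. The low dose change was 1.25, 2.28 and -0.43 for Cxcl10, and 0.98, 2.32 and -0.79 for Cxcl11 in the 3 experiments, in the order given at the start. A test of the difference between the experiments called none of 17238 genes (0%, 1695 or 9.83% unadjusted, DESeq2 111). It gave an adjusted p of 0.481 for Cxcl10 and 0.462 for Cxcl11, with unadjusted p of 0.0316 and 0.0206 from the same edgeR fit.

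Of the wider lists, 1 of 25 tested chemokines and receptors rose in this fit, Ccl2 (log2 change 1.56, SE 0.32, adjusted p 0.0150), a monocyte attractant, and 1 of 27 genes of the interferon gamma axis, Ifngr2 (0.42, SE 0.09, adjusted p 0.0314). None fell, and over all genes 0.569% were higher and 0.951% lower. Of the cell type markers, 8 of 10 endothelial genes fell, and 2 of 11 macrophage and 2 of 8 B and plasma cell genes rose, and their part in the members' values was not tested. Cd3e had a log2 change of 0.74 (SE 0.47, adjusted p 0.475), Cd8a one of 0.65 (SE 0.52, adjusted p 0.602) and Ifng one of 0.63 (SE 0.67, adjusted p 0.712). Irf1 (0.13, SE 0.15) did not pass. Of the enzymes, Adam17 had a log2 change of 0.36 (SE 0.10, adjusted p 0.0805), Dpp4 one of 0.56 (SE 0.49) and Adam10 one of 0.03 (SE 0.08).

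Ligands and receptors were then followed from tumor to tumor within groups, as the deviation of each library's log2 CPM from its group mean over the 32 libraries. The ligand and receptor pairs share their libraries, their depth and their tissue makeup, and p-values come from 100000 permutations within groups, adjusted over the 5 pairs computed, of which 4 are given. Cxcl9 and Cxcr3 had a Pearson r of 0.785 (permutation p 2e-05, adjusted p 0.0001) and a Spearman rho of 0.828 (permutation p 1e-05, the smallest these permutations can give). Within the experiments, in the same order, r was 0.717, 0.794 and 0.852, and without the 2 libraries farthest from the median of Cxcl9 it was 0.788. Tumors with more Cxcl9 than their group thus had more Cxcr3 in each experiment.

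The other Cxcr3 ligands followed the receptor less closely. Cxcl10 and Cxcr3 had an r of 0.653 (permutation p 0.00364, adjusted p 0.00607; rho 0.593, permutation p 0.00758), with 0.625, 0.675 and 0.663 within the experiments and 0.580 without the 2 farthest libraries. Cxcl11 and Cxcr3 had an r of 0.580 (permutation p 0.00577, adjusted p 0.00721; rho 0.571, permutation p 0.00462), with 0.506, 0.510 and 0.722 within the experiments and 0.522 without the 2 farthest libraries. Differences between these r values were not tested.

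Cxcl16 and Cxcr6 had an r of 0.671 (permutation p 0.00086, adjusted p 0.00215; rho 0.680, permutation p 0.00058). It did not hold in every experiment: r was 0.0813 among the dose libraries, 0.770 among the DC-101 libraries and 0.860 among the anti-PD1 libraries. Without the 2 libraries farthest from the median of Cxcl16, both vehicle tumors of the anti-PD1 experiment, it was 0.526. Members that are not ligand and receptor of each other reached similar values. Cxcr6 had an r of 0.750 with Cxcl9, 0.746 with Cxcl11, 0.745 with Ccl5 and 0.675 with Cxcl10. Cxcl16 and Cxcr3 had one of 0.580. A high r was thus not particular to a ligand and its own receptor.

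**Figure D5:**
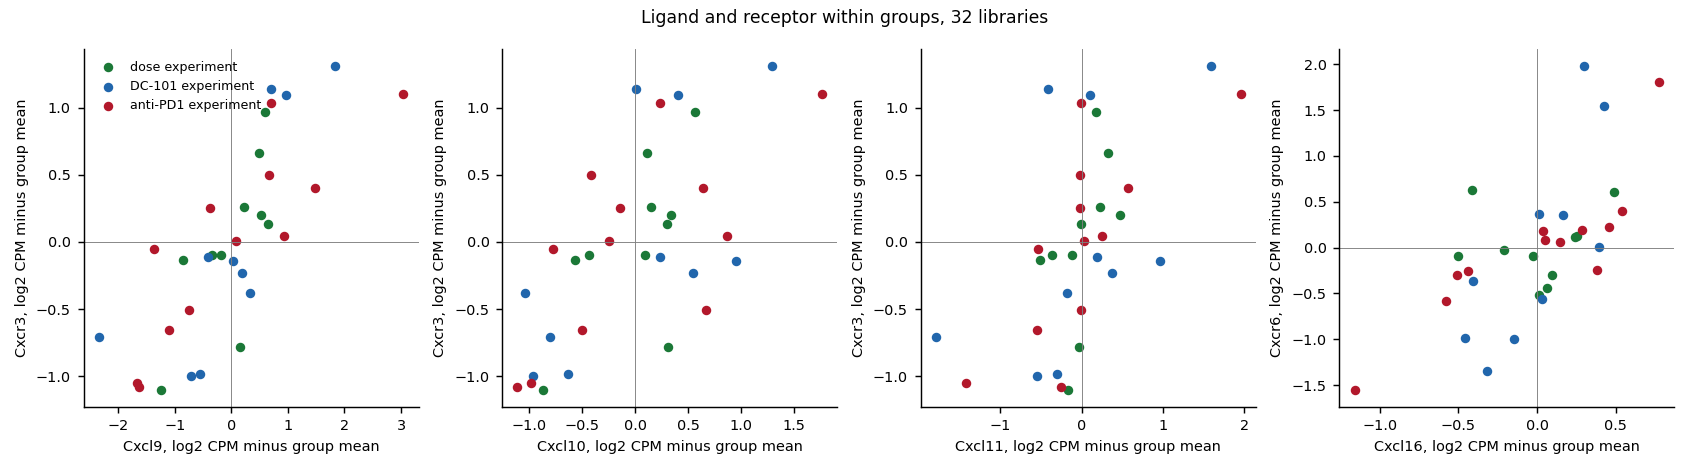
Receptor against ligand for 4 pairs, each as log2 CPM minus the mean of the library's group, with 1 point per library and colors for the experiments. Points of Cxcl9 and Cxcr3 rise together in all 3 colors (r 0.785), while those of Cxcl16 and Cxcr6 do so in the DC-101 and anti-PD1 experiments but not in the dose experiment (r 0.0813).

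The genes most like each member, by the same deviations over 32 libraries and among 13993 genes, are a description and carry no test. For Cxcl9 they were Igtp (r 0.948) and Gbp4 (r 0.928), both interferon-induced GTPases. Cxcl10 was near to Ifi44l (r 0.887), and Cxcl11 was nearest to the MHC class I gene H2-K1 (r 0.895) and the GTPase gene Gbp3 (r 0.885). Ccl5 was nearest to Calhm6 (r 0.933) and Gbp3 (r 0.898). The receptors were near lymphocyte genes: Cxcr3 was near to the transcription factor gene Ikzf3 (r 0.890), and Cxcr6 nearest to the T cell adaptor gene Skap1 (r 0.902) and the T cell receptor subunit Cd3g (r 0.898). Cxcl16 was nearest to Arl5c (r 0.892) and Cd83 (r 0.892), a marker of mature dendritic cells.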

How the data were processed

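Paired reads came from 32 stranded mRNA libraries of tumor tissue. The deposited files hold unnormalized counts for each gene: the authors trimmed reads with cutadapt 2.4, aligned them to GRCm38 with STAR 2.7.2a and counted Gencode genes. The strand column used is not stated. Results of the authors' later TMM and limma steps were not used here. Of the 54446 gene identifiers, 99.93% were matched to Gencode coordinates on this build.

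Groups came from the labels. One model per experiment, with all of its groups, was fitted in edgeR 4.0.16 (R 4.3.3) after filterByExpr at a minimum count of 10 and a total of 15, with TMM scaling, robust quasi-likelihood F-tests and Benjamini-Hochberg adjustment over all genes. Log2 CPM had a prior count of 2. The 36 within-group library pairs were checked for duplicates, and none was found (lowest chi-square per degree of freedom 12.9). Alternatives were DESeq2 1.42.0, limma 3.58.1 (voom), other scalings, no filter, a replicate block and libraries left out. The members and gene lists were chosen with earlier results of these data known. Named genes are the 7 members, a few genes always named, up to 3 rises and 3 falls of each list by size, and up to 2 most alike per member. Some items that this rule names are not reported here.

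The code was tested on simulated data with known changes before it was run on the counts.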

Additional observations from a re-analysis of the deposited data

How the results depend on the processing

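Of the member changes, 554 of 587 values under other settings and 739 of 812 with a library left out kept their direction and their side of the threshold. Members called for high dose against vehicle (4 in the report) came to 0 with total count scaling, with no filter and with the replicate block, and to 2 with limma voom, and for high against low dose (1 in the report) to 0 with total count scaling and the replicate block. DESeq2 gave 2 for the low dose in the DC-101 experiment, and leaving out the anti-PD1 experiment gave 1 over the 3 experiments. With a library left out, these counts ran from 0 to 5, from 0 to 1 and, over the 3 experiments, from 0 to 2. With total count scaling, the median change over all genes at the high dose went from 0.02 to -0.13 (log2). The causes were not tested, and the left-out fits also had fewer samples.

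Counts over all genes moved as well. High dose against vehicle (2582 genes) gave 5275 with DESeq2, 282 with total count scaling, 416 with no filter, 1332 with limma voom and 15 to 7030 with a library left out. High against low dose (697) gave 3059, 198 and 309 with DESeq2, total count scaling and no filter, and 62 to 4488 with a library left out. The low dose in the DC-101 experiment (4) gave 1097 with DESeq2, 12 with no filter and 0 without any 1 library. The fit over 3 experiments (262) gave 1061 with DESeq2, 153 with no filter, 155 to 333 with a library left out, and 68, 35 and 394 without the dose, DC-101 or anti-PD1 experiment. In the anti-PD1 experiment, no filter gave 10 for the low dose and 1 for the combination, where the report has 0.

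The changes that turned sign were all below the threshold in the report. With total count scaling Ccl5 came to -0.013 for high against low dose. With limma voom, Cxcl9 came to 0.031 and Cxcr6 to 0.15 for DC-101 against vehicle, Cxcl9 to 0.11 and Ccl5 to 0.44 for the low dose in the anti-PD1 experiment, Cxcl9 to 1.12 and Cxcl11 to 0.56 for the combination against vehicle, and Cxcr6 to -0.55 for the interaction. Over 3 experiments, Cxcl9 came to -0.0075 and Cxcl16 to -0.16 without the dose experiment, and Cxcl16 to -0.022 without the anti-PD1 experiment.

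With a library left out, Cxcl10 at the high dose ran from -0.015 to 0.55 and Ccl5 for high against low dose from -0.31 to 0.43. For the low dose in the DC-101 experiment, Cxcr3 ran from -0.54 to 0.98 and Cxcr6 from -0.69 to 1.67. For DC-101 against vehicle, Cxcl9 ran from -0.89 to 0.35, Cxcr3 from -1.50 to 0.11, Ccl5 from -0.27 to 0.64, Cxcl16 from -0.36 to 0.029 and Cxcr6 from -0.81 to 0.64, and for low dose against DC-101 Cxcr6 ran from -0.23 to 1.42. For the low dose in the anti-PD1 experiment, Cxcl9 ran from -1.63 to 1.95, Cxcl10 from -0.92 to 0.99, Cxcl11 from -1.26 to 0.82, Ccl5 from -0.68 to 1.002 and Cxcl16 from -0.25 to 0.50. For anti-PD1 against vehicle, Cxcl9 ran from -2.77 to 0.84, Cxcl10 from -1.14 to 0.72, Cxcl11 from -1.45 to 0.65, Cxcr3 from -0.67 to 0.55, Ccl5 from -1.11 to 0.58 and Cxcr6 from -0.42 to 1.52. For the combination against vehicle, Cxcl9 ran from -1.13 to 3.06, Cxcl11 from -0.54 to 1.55 and Cxcl16 from -0.12 to 0.63. For the interaction, Cxcr3 ran from -0.0805 to 1.38 and Cxcr6 from -1.32 to 0.62, and over 3 experiments Cxcl16 ran from -0.088 to 0.12.

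Same-numbered libraries deviated together (r above 0.1) in 2 of 9, 4 of 9 and 6 of 18 pairs of the 3 experiments, so the numbers were not read as pairs. The replicate block left 1 gene called at the high dose in place of 2582, 1 in place of 697 for high against low dose, and 0 in place of 4 for the low dose in the DC-101 experiment. With the block, Cxcl9 came to 0.78 and Cxcl11 to 0.33 for the combination against vehicle and Cxcr6 to -0.018 for the interaction.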
